A study of Mus musculus with 35 samples.

Results

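Adipocyte genes were followed across healing skin wounds of WT mice and of mice with a conditional deletion of Col5a1 (Col5a1CKO). The 10 genes (Adipoq, Plin1, Fabp4, Lep, Cidec, Lpl, Retn, Pparg, Cfd and Pck1) were chosen by name as genes of the dermal fat cell, and made up 10 of the 22832 gene symbols in the 2 count tables. Every one of the 10 was present in both tables. Where a symbol had several RefSeq rows (Plin1, Pparg and Retn), the row with the most reads was used.

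Messenger RNA was sequenced from 35 wounds in 8 groups. All mice carried floxed Col5a1 alleles and all received tamoxifen, so the controls shared both; Col5a1CKO mice also carried Col1a2-CreERT, a Cre recombinase driven by the Col1a2 promoter, which is active in collagen-producing mesenchymal cells. Per the study's methods, adult mice of both sexes received a large full-thickness excision on the back, and a punch from the middle of the wound or scar was used. The first table covered day 14 with 7 WT wounds, 7 Col5a1CKO wounds and 3 Col5a1CKO wounds that had been injected with WT fibroblasts, and day 19 with 3 wounds of each genotype. The second held 4 WT wounds with vehicle, 4 Col5a1CKO wounds with vehicle and 4 Col5a1CKO wounds with cilengitide, an inhibitor of αv integrins given daily, all at day 14. One label field names WT fibroblasts for the Col5a1CKO wounds of day 19, while the titles and the column names place the injection at day 14; the titles were followed. Per the study's methods each n counts separate biological replicates, so every wound was treated as 1 replicate; the labels do not otherwise tie a wound to an animal. The same methods give PBS to mice that did not receive fibroblasts, so the control wounds of the fibroblast experiment were vehicle controls, although the labels call them wounded only.

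Dermal white adipocytes lie beneath the hair follicles and are lost from the bed of a deep wound, from which they may later be replaced. They store triglyceride in 1 large droplet coated by Plin1 (perilipin) and Cidec, which promotes droplet fusion. Lpl frees fatty acids from circulating lipoproteins and Fabp4 carries them in the cytoplasm. Pck1 supplies glycerol for triglyceride, and Pparg is the transcription factor that drives fat cell differentiation. Adipoq (adiponectin), Lep (leptin), Retn (resistin) and Cfd (adipsin, also complement factor D) are secreted. Fabp4 and Pparg are also made by endothelial cells and macrophages, Lpl by macrophages and muscle, and Pparg by sebocytes, so a level of these is not specific to fat cells.

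In the NCBIM37 (mm9) build that was used for alignment, GENCODE M1 places Adipoq at chr16:23146609-23158101 on the plus strand, Plin1 at chr7:86866050-86877662 on the minus strand, Fabp4 at chr3:10204347-10208576 on the minus strand, Lep at chr6:29010220-29023877 on the plus strand, and Cidec at chr6:113374628-113385754 on the minus strand. It places Lpl at chr8:71404390-71431347, Retn at chr8:3655770-3660110, Pparg at chr6:115311239-115440419, Cfd at chr10:79353598-79355401 and Pck1 at chr2:172978549-172984774, all on the plus strand. Reads were counted over the exons of these genes.

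The 250 bases before the transcription start of 4 of the genes are shown, because 3 defining markers of the mature fat cell (Adipoq, Plin1 and Lep) and the single gene that passed the test between groups (Retn) can then be compared by sequence. They are RefSeq sequences of the later build GRCm38.p6, in which the coordinates are given. Capitals mark the letters TTGCNNAA, a C/EBP-type site, and those of the CCAAT box, searched on both strands.
Adipoq, chr16:23146286-23146535, plus strand: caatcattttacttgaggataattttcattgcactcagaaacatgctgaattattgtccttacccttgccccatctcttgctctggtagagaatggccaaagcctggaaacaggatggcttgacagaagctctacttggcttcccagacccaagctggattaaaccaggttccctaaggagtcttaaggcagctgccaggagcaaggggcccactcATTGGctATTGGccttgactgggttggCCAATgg
Plin1, chr7:79732777-79733026, minus strand: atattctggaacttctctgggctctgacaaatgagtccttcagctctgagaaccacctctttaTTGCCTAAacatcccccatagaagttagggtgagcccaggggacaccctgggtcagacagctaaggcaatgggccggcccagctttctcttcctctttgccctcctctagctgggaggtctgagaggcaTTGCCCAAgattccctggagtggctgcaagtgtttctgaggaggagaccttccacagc
Lep, chr6:29059971-29060220, plus strand: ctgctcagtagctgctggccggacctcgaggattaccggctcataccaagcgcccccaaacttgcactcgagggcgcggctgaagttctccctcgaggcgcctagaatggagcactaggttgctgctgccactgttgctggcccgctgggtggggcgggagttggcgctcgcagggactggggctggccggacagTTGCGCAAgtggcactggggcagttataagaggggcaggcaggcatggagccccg
Retn, chr8:3655520-3655769, plus strand: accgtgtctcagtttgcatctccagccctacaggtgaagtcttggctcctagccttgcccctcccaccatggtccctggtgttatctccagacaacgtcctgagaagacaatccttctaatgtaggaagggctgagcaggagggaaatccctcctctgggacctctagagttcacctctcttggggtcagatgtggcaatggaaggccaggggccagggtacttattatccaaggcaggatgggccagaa
The table of start sites held 8 of the 10 genes with 11 starts; Fabp4 and Lpl had no entry. TTGCNNAA was present before 4 of the 11 starts (1 of Cidec, 1 of Lep, 1 of Plin1 and 1 of Pparg) and before 9.57% of the 32841 starts of all genes. In Plin1 it occurred at bases -187 to -180 and -58 to -51, counted from the start, and in Lep at bases -55 to -48. CCAAT was present before 3 of the 11 starts and 33.9% of all starts. TATANA was present before 2 of the 11 and 22.6% of all, and the DR1 site of Pparg, AGGNCA repeated with 1 base between, before 0 of the 11 and 0.338% of all. The windows of Retn and Cfd held none of these letters.

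Sequencing depth ran from 15043838 to 35702566 reads on the kept rows in the first table and from 51211643 to 68266808 in the second. A count of 3 reads, taken as the limit of detection, was worth 0.0834 to 0.218 CPM in the first table and 0.0414 to 0.0658 CPM in the second. These limits cover counting error only. CPM are counts scaled to a common library size by the trimmed mean of M-values (TMM). The first table fell into 2 library sets by the level of GC-rich against GC-poor genes: WT wounds a to d and Col5a1CKO wounds a to e of day 14 lay between -2.34 and -1.2 on the log2 scale, and all other wounds, every day 19 wound and every fibroblast-injected wound included, between 0.341 and 1.0. A comparison of day 19 with day 14 over all wounds was thus also a comparison of library sets. By Xist and Y-linked reads, WT wounds a, b, e, f and g and Col5a1CKO wounds a to d of day 14 came from males and the others from females; at day 19 only WT wound a was male. In the second table, WT vehicle wounds 2 and 4, Col5a1CKO vehicle wounds 1, 3 and 4 and cilengitide wounds 1 and 4 were male. WT vehicle wounds 1 and 3 and cilengitide wounds 2 and 3 were female. Col5a1CKO vehicle wound 2 had 66 Xist reads and 0 Ddx3y reads and fitted neither sex. Col5a1, the deleted gene, had a median of 846 CPM (347 to 2386) in WT and 368 CPM (170 to 663) in Col5a1CKO wounds of day 14, counted over all its exons (log2 fold change -1.43 ± 0.49 SE, adjusted p = 0.0757), and the groups overlapped.

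The punches differed in tissue makeup. The summed level of the keratinocyte markers ran from 30119 to 152027 CPM in WT and from 31.4 to 56884 CPM in Col5a1CKO wounds of day 14, and from 58663 to 96119 CPM in WT and from 57.6 to 11109 CPM in Col5a1CKO wounds with vehicle. Summed skeletal muscle markers ran from 9.39 to 30797 CPM over all wounds. The 5 genes taken as adipocyte markers (Adipoq, Plin1, Cidec, Lep and Retn) summed to 0.187 to 77.4 CPM in the first table and 0.147 to 7.10 CPM in the second. In the second table Retn followed the macrophage markers with a Spearman's correlation of 0.76 and Adipoq with 0.50. In the first these were 0.31 and 0.71. The sums of the second table are thus not a measure of fat cells alone. No unwounded skin was among the samples to set these sums against, and they do not give the number of fat cells. Fewer fat cells cannot be told apart from less RNA per fat cell in bulk tissue.

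Across the 23 wounds of the first table the 10 genes spanned a wide range of levels per length. Fabp4 was highest, with a median of 246 RPKM (60.5 to 813), followed by Lpl with 40.3 RPKM (6.15 to 165). The ranges of these 2 genes overlapped. Cfd had a median of 5.97 RPKM (0.0450 to 63.9), Retn 2.55 (0 to 19.4), Adipoq 2.03 (0 to 19.1) and Pparg 1.49 (0.467 to 4.38). These neighbours overlapped over most of their ranges. Cidec at 0.509 RPKM, Plin1 at 0.490, Pck1 at 0.115 and Lep at 0.0665 were lowest, and had 0 reads in 3, 5, 6 and 4 of the 23 wounds. Fabp4 and Lpl, like Cfd and Pparg, were read in every wound, also where the droplet proteins were at 0. In WT wound c of day 14, Fabp4 had 10492 reads and Adipoq 1, Plin1 0, Cidec 0 and Lep 0.

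**Figure D1:**
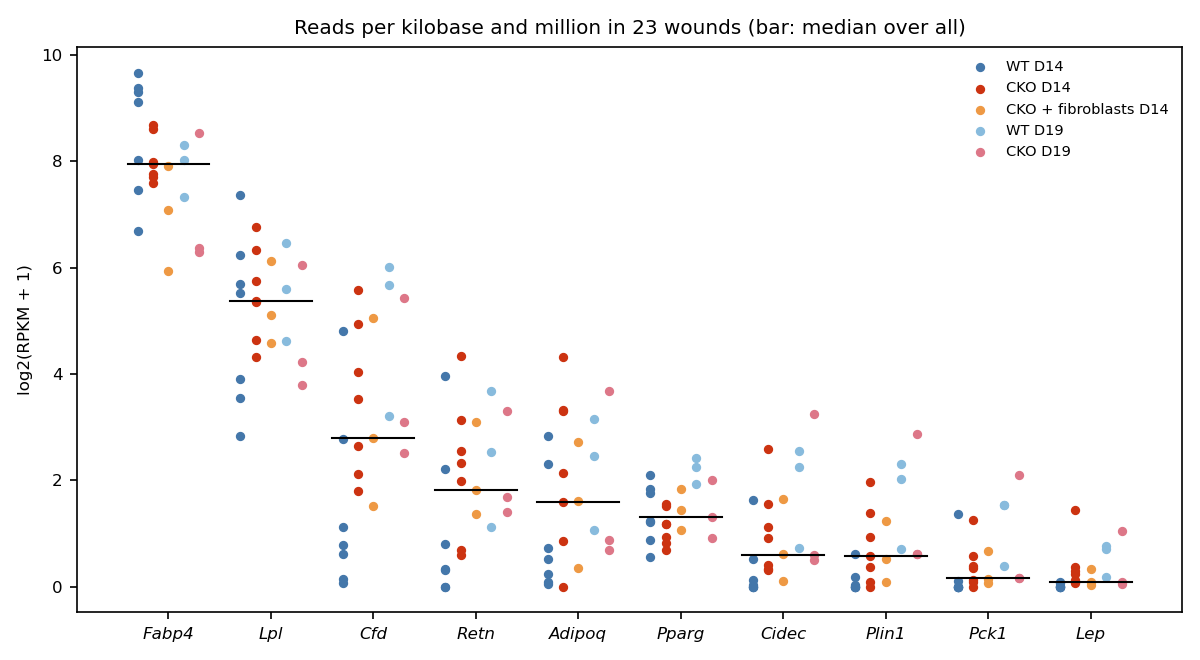
Level of each adipocyte gene in the 23 wounds of the first table as log2(RPKM + 1), 1 point per wound coloured by group, with a bar at the median over all wounds. Fabp4 (median 246 RPKM) and Lpl (40.3 RPKM) stand above the other 8 genes, and Lep (0.0665 RPKM) is lowest.

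At day 14, Col5a1CKO was compared with WT to ask how loss of type V collagen from fibroblasts altered the healing wound. None of the 10 genes passed the test (adjusted p under 0.05 and at least 2-fold), where 8.28% of the 14368 genes tested did, 5.57% as higher and 2.71% as lower in Col5a1CKO. Plin1, Lep and Pck1 had too few reads to be tested. The medians of the droplet and secreted genes lay higher in Col5a1CKO, but the spread between wounds was as large as the difference. The 7 genes tested had adjusted p-values from 0.205 to 0.951 and a median log2 fold change of 0.98, against -0.03 over all genes tested.

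Of the droplet genes, Plin1 had 0 reads in 4 of 7 WT wounds and at most 22, in wound a. In Col5a1CKO it had 0 reads in 1 wound, a median of 27 and 218 in wound b. Cidec had 0 reads in 3 of 7 WT wounds, a median of 2 and at most 78, and from 13 to 331 reads in Col5a1CKO with a median of 44 (log2 fold change 1.82 ± 1.27 SE, adjusted p = 0.373). For both genes WT wound a lay above the Col5a1CKO median in CPM, so the groups overlapped. That wound also carried 8727 CPM of skeletal muscle markers, where WT wounds b to f carried 13.7 to 21.5 CPM.

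Of the secreted genes, Adipoq ranged from 0.0728 to 10.6 CPM in WT with a median of 0.870, and from 0 to 33.4 CPM in Col5a1CKO with a median of 6.05 (log2 fold change 1.87 ± 1.2 SE, adjusted p = 0.328). Cfd ranged from 0.0623 to 35.0 CPM in WT with a median of 1.04, and from 3.04 to 61.5 CPM in Col5a1CKO with a median of 14.0 (1.60 ± 1.13 SE, adjusted p = 0.378). Col5a1CKO wounds a, b and f were the highest for Adipoq and, with WT wound a, among the highest for Cfd. Lep had 0 reads in 4 of 7 WT wounds and at most 8, and 7 to 219 reads in the 7 Col5a1CKO wounds with a median of 15. The Lep groups overlapped by the WT wound with 8 reads alone. Retn had a median of 0.229 CPM in WT (0 to 11.8) and 3.20 CPM in Col5a1CKO (0.399 to 16.0), again with WT wound a among the highest. In 2 wounds, picked after their values were seen, Adipoq stood apart from the other adipocyte genes: WT wound b had 154 Adipoq reads with 0 of Plin1, Cidec and Pck1 and 10 of Cfd, and Col5a1CKO wound d had 0 Adipoq reads with 61 of Cfd, 15 of Lep and 15 of Cidec. Without both wounds the Adipoq log2 fold change was 2.96 (adjusted p = 0.0897), still short of the threshold. WT wound b was the highest WT wound for Adipoq and Col5a1CKO wound d the lowest of its group. Leaving them out thus raises the fold change by construction, and nothing is concluded from the rise.

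Fabp4, the fatty acid carrier, ranged from 104 to 763 CPM in WT with a median of 497, and from 168 to 375 CPM in Col5a1CKO with a median of 218 (log2 fold change -0.82 ± 0.40 SE, adjusted p = 0.205). The difference was present in the lower library set, in which WT wounds a to d had 497 to 763 CPM and Col5a1CKO wounds a to e 168 to 375 CPM without overlap (-1.23 ± 0.26 SE, adjusted p = 0.0190, with 6.60% of genes called, 3.68% higher and 2.92% lower). In the upper set WT wounds e to g had 104 to 252 CPM and Col5a1CKO wounds f and g had 169 and 218 CPM (0.21 ± 0.42 SE, adjusted p = 0.723), and none of the 8 members tested there was called, with 9.22% of genes called, 8.81% higher and 0.411% lower. Whether the 2 sets differed was not tested. Lpl ranged from 37.8 to 932 CPM in WT and from 106 to 618 CPM in Col5a1CKO (-0.08 ± 0.63 SE, adjusted p = 0.951), and Pparg from 1.32 to 8.53 CPM and from 1.53 to 4.92 CPM (-0.58 ± 0.48 SE, adjusted p = 0.453). Both overlapped across their whole Col5a1CKO range. Pck1 had 0 reads in 5 of 7 WT wounds and 90 in wound a, and a median of 23 reads in Col5a1CKO with 142 at most.

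**Figure D2:**
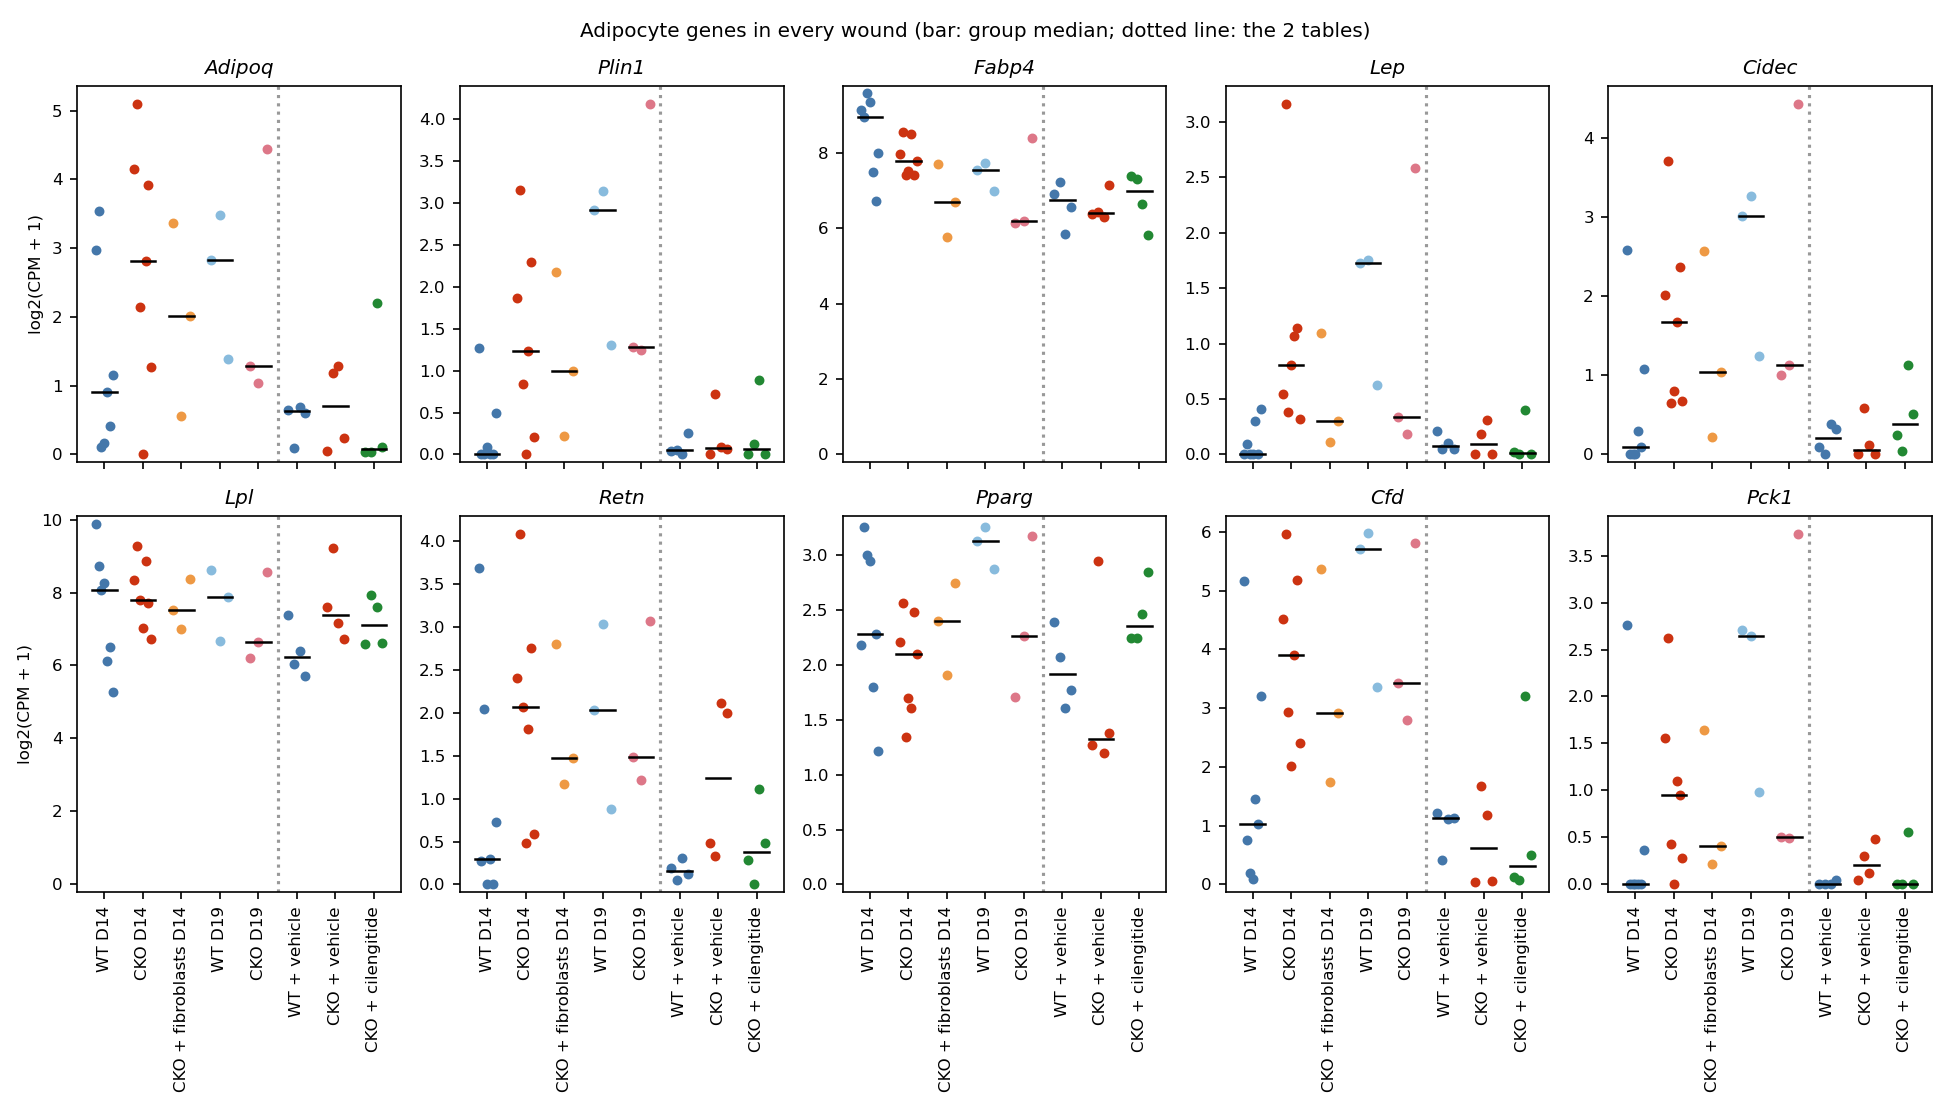
Each of the 10 genes in all 35 wounds as log2(CPM + 1), 1 point per wound, with a bar at the median of the plotted values of each group; the dotted line separates the 2 tables, which were scaled separately. In the first 5 groups Adipoq spans 0 to 33.4 CPM, and wounds of each group overlap with those of the next.

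At day 19 all 10 genes could be tested between Col5a1CKO and WT, and none passed with edgeR, with 0.0198% of the 15136 genes tested called (3 genes, and 1758 at an unadjusted p under 0.05 and at least 2-fold). DESeq2 called 1397 of the same 15136 genes, 684 higher and 713 lower, and also 0 of the 10, so the share over all genes depends on the tool. The median log2 fold change of the 10 was 0.06 against -0.01 over all genes. Within Col5a1CKO, 1 wound was unlike the other 2. Wound c had 427 Adipoq reads, 356 of Plin1, 427 of Cidec, 103 of Lep and 254 of Pck1, where wounds a and b had 27 and 23 of Adipoq, 27 and 30 of Plin1, 19 and 26 of Cidec, 5 and 3 of Lep and 8 and 9 of Pck1. Wound c also carried 30797 CPM of skeletal muscle markers, against 594 and 2482 CPM in the others. Cfd had 51.1, 61.8 and 9.24 CPM in WT wounds a to c and 9.72, 5.96 and 55.3 CPM in Col5a1CKO wounds a to c (log2 fold change -0.71 ± 1.01 SE, adjusted p = 0.675). Pparg had 7.76, 8.53 and 6.34 CPM in WT and 2.27, 3.81 and 7.99 CPM in Col5a1CKO (-0.62 ± 0.46 SE, adjusted p = 0.417). In both genes the Col5a1CKO wound c lay within the WT values, and the groups overlapped.

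From day 14 to day 19, WT wounds were compared to follow adipocyte genes as the scar formed. Over all WT wounds none of the 10 passed the test, with 5.74% of the 15181 genes tested called, 1.5% higher and 4.25% lower. The median log2 fold change of the 10 was 1.56, against 0.00 over all genes. Plin1 had 174, 205 and 30 reads at day 19 and from 0 to 22 at day 14, without overlap (4.25 ± 1.59 SE, adjusted p = 0.133). Lep had 61, 62 and 11 reads at day 19 and 0 to 8 at day 14, again without overlap (4.21 ± 1.35 SE, adjusted p = 0.0872). Cidec had 188, 225 and 28 reads at day 19 and 0 to 78 at day 14 (2.60 ± 1.64 SE, adjusted p = 0.376), so the groups overlapped. Cfd was 51.1, 61.8 and 9.24 CPM at day 19, against a median of 1.04 CPM and a highest value of 35.0 CPM at day 14 (2.57 ± 1.38 SE, adjusted p = 0.292). Fabp4 went the other way, at 184, 212 and 125 CPM against a median of 497 CPM (-1.32 ± 0.62 SE, adjusted p = 0.222). Without WT wound a of day 14, Plin1 and Pck1 passed the test (log2 fold changes 5.96 and 6.15, adjusted p = 0.0490 and 0.0476). That wound was the highest of day 14 for both genes, so leaving it out raises both fold changes by construction. The share of all genes called in that fit is not given here.

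Within the upper library set, in which 3 WT wounds of day 14 (e to g) could be set against the 3 of day 19, 7 of the 10 genes passed, all higher at day 19, where 14.2% of the 15060 genes tested were called higher and 24.3% in either direction. The droplet gene Plin1 rose (log2 fold change 5.35 ± 1.39 SE, adjusted p = 0.0310), from 0, 0 and 10 reads to 174, 205 and 30, and Cidec rose (3.71 ± 1.11 SE, adjusted p = 0.0455), from 5, 2 and 27 reads to 188, 225 and 28. Pck1, the enzyme that makes glycerol for triglyceride, rose from 0, 0 and 7 reads to 146, 137 and 20 (5.42 ± 1.35 SE, adjusted p = 0.0278). For Cidec the lowest wound of day 19, c, lay just above the highest of day 14, g. Adipoq rose from 0.870, 0.336 and 1.23 CPM to 6.13, 10.1 and 1.62 CPM (2.97 ± 0.78 SE, adjusted p = 0.0313), and Cfd from 1.74, 1.04 and 8.27 CPM to 51.1, 61.8 and 9.24 CPM (3.57 ± 1.04 SE, adjusted p = 0.0415). Lpl rose from 68.9, 89.7 and 37.8 CPM to 392, 100 and 233 CPM (2.05 ± 0.59 SE, adjusted p = 0.0399), and Pparg from 2.47, 3.87 and 1.32 CPM to 7.76, 8.53 and 6.34 CPM (1.69 ± 0.42 SE, adjusted p = 0.0268). In each of the 7 genes, all 3 wounds of day 19 exceeded all 3 of day 14. The same was true of Lep and Retn, so it does not set the called genes apart. How many of all genes separated in this way was not counted. Lep (3.35, adjusted p = 0.0536) and Retn (3.74, adjusted p = 0.0635) did not pass. Fabp4 had 178, 104 and 252 CPM at day 14 and 184, 212 and 125 CPM at day 19 (0.078 ± 0.35 SE, adjusted p = 0.872), so its difference over all WT wounds was not present within this set.

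The 2 sets of 3 wounds also differed in other tissue. Keratinocyte markers summed to 152027, 143455 and 99350 CPM in WT wounds e, f and g of day 14, and to 18206, 24450 and 13937 CPM at day 19. Endothelial markers summed to 79.1, 84.2 and 143 CPM and to 374, 278 and 538 CPM. Fibroblast markers summed to 9292, 9570 and 8502 CPM and to 56391, 12090 and 116351 CPM. None of these 3 sums overlapped between the days. Skeletal muscle markers summed to 21.5, 15.7 and 1229 CPM at day 14 and to 3493, 328 and 472 CPM at day 19, with overlap. Wounds e to g were all male, while 1 of the 3 at day 19 was. The level of GC-rich against GC-poor genes ran from 0.564 to 0.620 on the log2 scale in wounds e to g. It was 0.885 or more in the 3 WT wounds of day 19. Depth was 26309358 to 35535050 reads in wounds e to g and 18075804 to 21282468 reads at day 19. Neither overlapped, so the days still differed within the upper set on the measure that defined it. The part of tissue makeup, sex, GC level and depth in the rise was not tested.

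**Figure D3:**
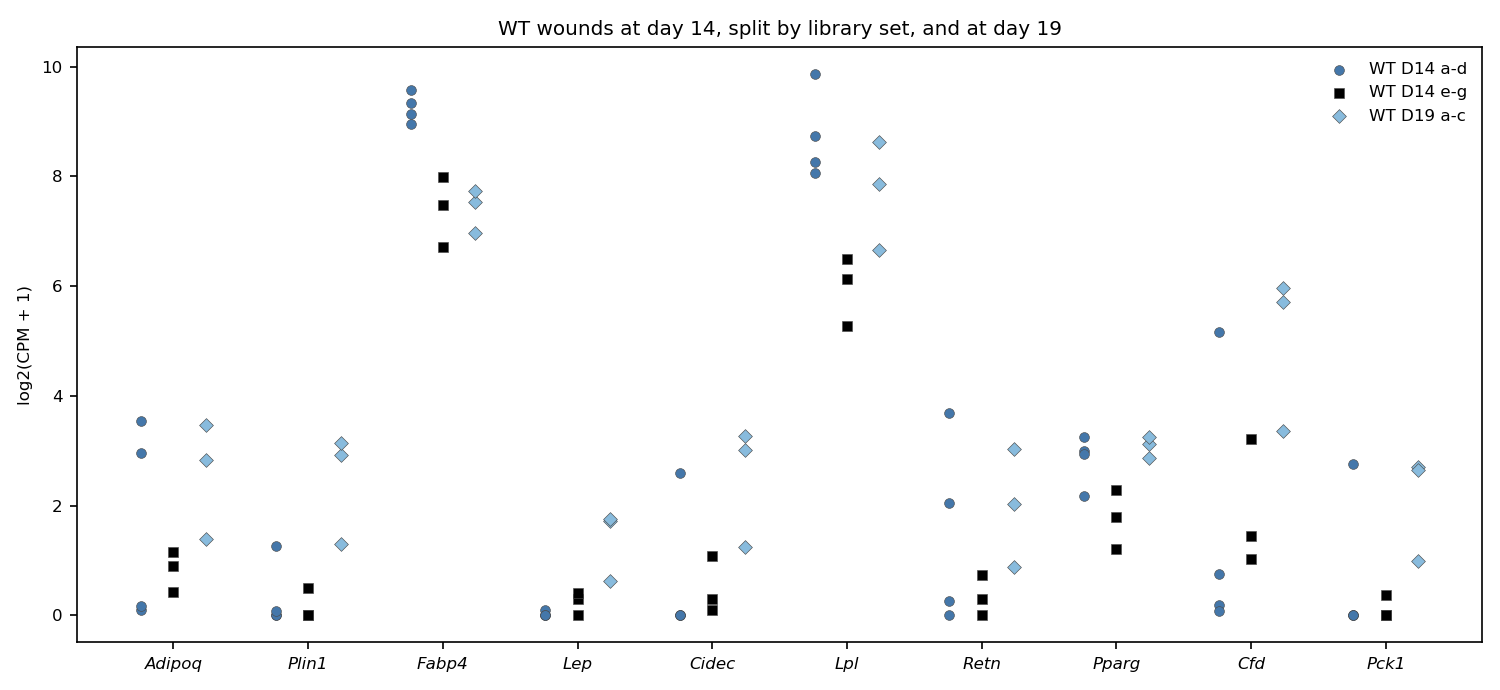
The 10 genes in WT wounds as log2(CPM + 1): day 14 wounds a to d of the lower library set (circles), day 14 wounds e to g of the upper set (squares) and day 19 wounds a to c (diamonds). Plin1, Cidec, Pck1, Adipoq, Cfd, Lpl and Pparg are higher at day 19 than in each of wounds e to g. So are Lep and Retn, which did not pass the test, while Fabp4 overlaps with wounds e to g.

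In Col5a1CKO wounds no adipocyte gene passed the test between day 19 and day 14, with 5.72% of the 15328 genes tested called. The median log2 fold change of the 10 was 0.11, against -0.12 over all genes. Plin1 (1.46 ± 1.27 SE, adjusted p = 0.510) and Pck1 (1.63 ± 1.31 SE, adjusted p = 0.469) rested on wound c of day 19: without it the values were -0.78 and -1.74. Within the upper set, Col5a1CKO wounds f and g of day 14 against the 3 of day 19 gave 0 calls in 15241 genes with edgeR, with 1557 at an unadjusted p under 0.05 and at least 2-fold. The time course of the 2 genotypes was compared directly through an interaction term over all wounds of both days without fibroblasts. No gene of the 10 and 0 of 15955 genes in all passed with edgeR, with 717 genes at an unadjusted p under 0.05 and at least 2-fold. The largest difference among the 10 was that of Lep, at -4.01 ± 1.96 SE on the log2 scale (adjusted p = 0.858), so the course in WT was not shown to differ from that in Col5a1CKO; the difference was not tested within the upper set alone.

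Injection of WT fibroblasts into the Col5a1CKO wound bed was compared with the Col5a1CKO control wounds at day 14, to ask what cells with intact Col5a1 change. None of the 10 genes passed, and 0 of 15660 genes passed with edgeR, with 891 at an unadjusted p under 0.05 and at least 2-fold. The median log2 fold change of the 10 was -0.67, against -0.04 over all genes, and 9 of the 10 were negative. Adipoq was 9.30, 0.473 and 3.03 CPM in the 3 injected wounds, within the range of 0 to 33.4 CPM in the controls (-1.34 ± 1.48 SE, adjusted p = 0.683). Lep had 36, 3 and 8 reads against 7 to 219 (-1.83 ± 1.27 SE, adjusted p = 0.507). Fabp4 was 208, 53.0 and 103 CPM against 168 to 375 CPM (-1.03 ± 0.44 SE, unadjusted p = 0.0378, adjusted p = 0.376). Injected wounds b and c lay below every control wound for Fabp4, and wound a lay among them. All injected wounds were female and in the upper library set. Control wounds a to e were in the lower set, and a to d were male. Control wounds f and g, female and in the upper set, had 169 and 218 CPM of Fabp4. Within the upper set none of the 10 genes was called, and 0 of 15559 genes passed with edgeR, with 69 at an unadjusted p under 0.05 and at least 2-fold. Injected wound a was the highest of the 3 for all members but Lpl and Pparg, and carried 21884 CPM of skeletal muscle markers against 282 and 304 CPM in b and c.

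Against WT wounds of day 14, none of the 9 genes tested passed in the injected wounds, with 5.83% of the 15318 genes tested called, 3.77% higher and 2.06% lower. Plin1 had 111, 6 and 34 reads against 0 to 22 in WT (log2 fold change 2.62 ± 1.67 SE, adjusted p = 0.399), and Fabp4 was 208, 53.0 and 103 CPM against 104 to 763 CPM (-1.70 ± 0.68 SE, adjusted p = 0.167). DESeq2, which called 1186 of 15318 genes lower, called Fabp4 lower (-1.78, adjusted p = 0.0327). Within the upper library set Fabp4 did not pass with edgeR (-0.40, adjusted p = 0.585). Within that set, against WT wounds e to g, Lpl (1.87 ± 0.45 SE, adjusted p = 0.0158) and Retn (3.50 ± 1.15 SE, adjusted p = 0.0437) were called higher, where 31.0% of genes were called in either direction and 19.8% higher. The 3 WT wounds were male and the 3 injected wounds female, so sex and group cannot be told apart there. Macrophage markers summed to 176 to 270 CPM in these WT wounds and to 862 to 1129 CPM in the injected wounds, and keratinocyte markers to 99350 to 152027 CPM and 11235 to 27632 CPM. Neither sum overlapped, and their part in both calls was not tested.

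**Figure D4:**
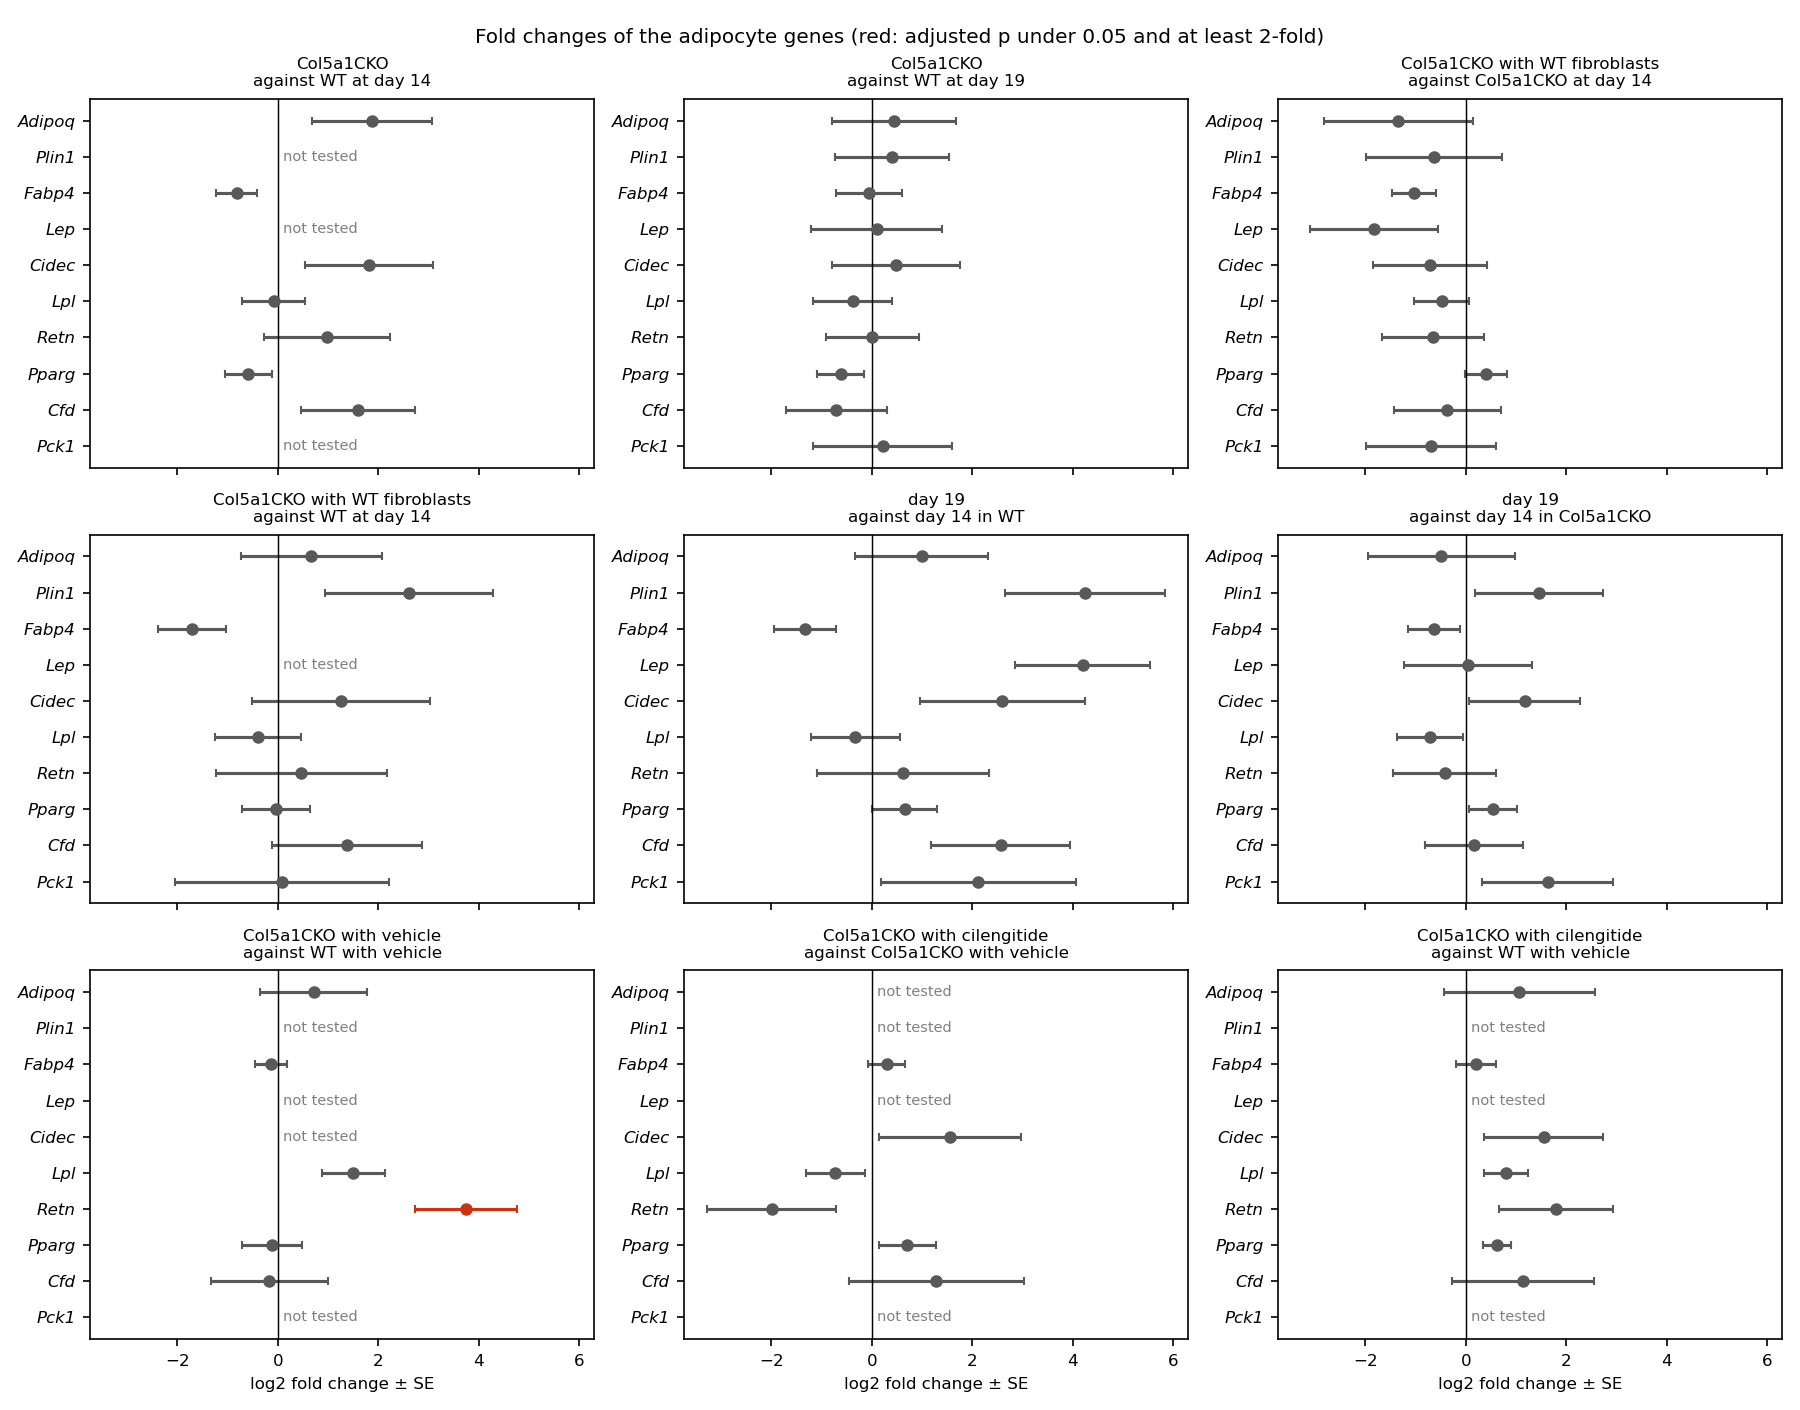
log2 fold change with its standard error for each adipocyte gene in the 9 comparisons of 2 groups; red marks the only gene that passed (Retn, 3.75, in Col5a1CKO against WT wounds with vehicle), grey the tested genes that did not, and genes with too few reads are marked as not tested.

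The cilengitide experiment began from WT and Col5a1CKO wounds that had both received vehicle. One of the 6 genes tested passed: Retn, which encodes resistin, was higher in Col5a1CKO (log2 fold change 3.75 ± 1.02 SE, adjusted p = 0.0182). The background was high, since 30.9% of the 15435 genes tested were called in either direction and 17.5% were called higher in Col5a1CKO, so 1 call among 6 genes is no more than the share over all genes. Retn had 9, 2, 13 and 5 reads in the WT wounds and 23, 19, 155 and 136 reads in the Col5a1CKO wounds. The groups did not overlap, but Col5a1CKO wounds 3 and 4 stood far above wounds 1 and 2. Without WT wound 4 the call was lost (3.61, adjusted p = 0.0527). No Col5a1CKO vehicle wound was read as female, while WT wounds 1 and 3 were, so the groups were not balanced by sex. The part of sex in the Retn call was not tested.

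Retn was high in Col5a1CKO vehicle wounds both with and without reads of other fat cell genes. Wound 3, with 155 Retn reads, also had the most Adipoq (1.44 CPM) and Lep (11 reads) of its group. Col5a1CKO wound 4, with 136 Retn reads, had 8 of Adipoq, 2 of Plin1, 0 of Cidec, 0 of Lep and 2 of Cfd, and wound 2, with 19 Retn reads, had the most Plin1 (47), Cidec (36) and Cfd (160). Retnlg, a paralog of Retn known from neutrophils and looked at after the values of Retn were seen, had 4873, 2918, 29037 and 44386 reads in Col5a1CKO wounds 1 to 4 and 6 to 88 reads in the WT wounds. The 2 wounds with most Retnlg were the 2 with most Retn. Macrophage markers summed to 1184, 1197, 2379 and 2570 CPM in Col5a1CKO wounds 1 to 4 and to 123 to 353 CPM in WT. The parts of these cells, or of reads shared between the paralogs, in the Retn count were not tested. In the first table the match was loose: Col5a1CKO wound a of day 14 had 22083 Retnlg and 75 Retn reads, and wound b 1017 and 439.

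**Figure D5:**
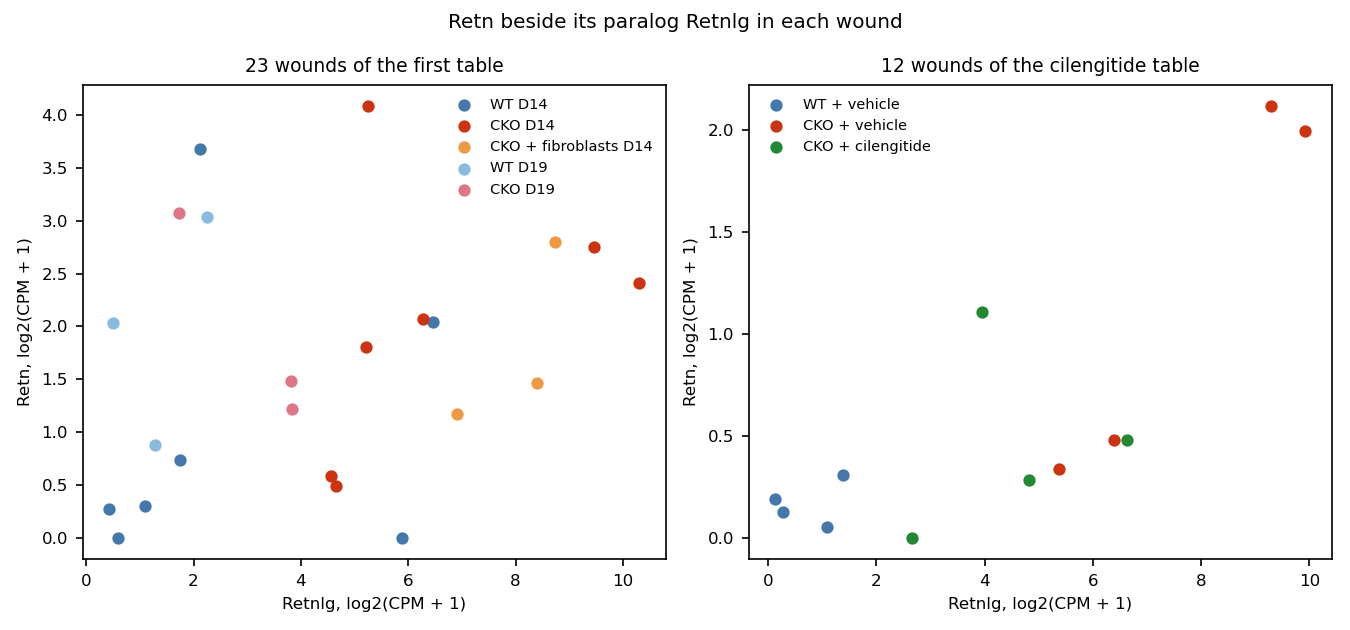
Retn against its paralog Retnlg in each wound as log2(CPM + 1), first table left and cilengitide table right. On the right, Col5a1CKO vehicle wounds 3 and 4 (155 and 136 Retn reads) lie apart at the top; on the left, high Retn occurs with and without Retnlg.

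The other members did not pass between the vehicle groups. Lpl was 165, 65.0, 83.4 and 51.0 CPM in WT and 194, 593, 144 and 105 CPM in Col5a1CKO (1.51 ± 0.63 SE, adjusted p = 0.0788). DESeq2, which called 3186 of 15435 genes higher, called Lpl higher (adjusted p = 0.0284). WT wound 1 lay above Col5a1CKO wounds 3 and 4. Fabp4 was 119, 149, 56.6 and 93.8 CPM in WT and 82.5, 85.6, 76.9 and 140 CPM in Col5a1CKO (-0.14 ± 0.32 SE, adjusted p = 0.740). Pparg was 4.25, 3.19, 2.04 and 2.41 CPM in WT and 1.42, 6.70, 1.29 and 1.60 CPM in Col5a1CKO (-0.11 ± 0.60 SE, adjusted p = 0.890). Col5a1CKO wound 2, which matched neither sex, was the highest wound for Pparg and Lpl, and without it Pparg was called lower in Col5a1CKO (-1.07, adjusted p = 0.0356). Leaving out the highest Col5a1CKO wound lowers this fold change by construction, and the share of all genes called in that fit is not given here. Plin1, Cidec, Lep and Pck1 were not tested, with at most 47, 36, 11 and 18 reads in a wound of either group.

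With cilengitide, Col5a1CKO wounds were compared with Col5a1CKO vehicle wounds to ask what blocking αv integrins changes. None of the 6 genes tested passed, with 13.1% of the 15564 genes tested called, 6.48% higher and 6.59% lower. Retn had 15, 0, 73 and 24 reads with cilengitide against 23, 19, 155 and 136 with vehicle (log2 fold change -2.0 ± 1.28 SE, adjusted p = 0.277), and the groups overlapped. Pparg was 3.74, 3.75, 4.52 and 6.16 CPM with cilengitide, above Col5a1CKO vehicle wounds 1, 3 and 4 and below wound 2 (0.71 ± 0.56 SE, adjusted p = 0.377). Without vehicle wound 2, Pparg was called higher with cilengitide (1.64, adjusted p = 0.0109). That wound was the highest vehicle wound for Pparg, so leaving it out raises the fold change by construction. The share of all genes called in that fit is not given here. Cidec had 13, 2, 75 and 26 reads with cilengitide and 0, 36, 4 and 0 with vehicle (1.56 ± 1.41 SE, adjusted p = 0.438). Adipocyte genes clustered in 1 treated wound: replicate 3 had 226 Adipoq, 54 Plin1, 20 Lep, 522 Cfd and 30 Pck1 reads, where the other 3 had 2 to 5, 0 to 6, 0 to 1, 4 to 25 and 0. Of the sebocyte markers, 4 of 5 tested were called higher with cilengitide (median log2 fold change 5.30); their sums were 119 to 387 CPM with cilengitide and 90.1 to 124 CPM with vehicle, which overlapped. Keratinocyte markers summed to 31568 to 66217 CPM and 57.6 to 11109 CPM. The part of either in the Pparg value was not tested.

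Against WT vehicle wounds, none of the 7 genes tested passed in the cilengitide wounds, with 8.58% of the 15515 genes tested called, 5.15% higher and 3.43% lower. Pparg was 3.74 to 6.16 CPM against 2.04 to 4.25 CPM (0.62 ± 0.28 SE, adjusted p = 0.134), Lpl 94.9 to 244 CPM against 51.0 to 165 CPM (0.80 ± 0.44 SE, adjusted p = 0.211), and Retn 0 to 73 reads against 2 to 13 reads (1.80 ± 1.14 SE, adjusted p = 0.264). These 3 comparisons share samples and are given side by side only.

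Beyond the 10 members, 62 other genes of fat cell biology in 7 lists were counted. At day 14, 59 were tested between Col5a1CKO and WT, of which 5 were higher and 2 lower. The 5 were the progenitor receptors Pdgfra (log2 fold change 2.36, adjusted p = 0.0206) and Pdgfrb (2.15, adjusted p = 0.00775), the early adipogenic factor Zfp423 (2.27, adjusted p = 0.0144), the droplet coat Plin2 (1.29, adjusted p = 0.0388), which many cell types make, and the triglyceride enzyme Dgat1 (1.67, adjusted p = 0.0284). The 2 were Elovl6, a fatty acid elongase (-2.36, adjusted p = 0.0233), and Abhd5, a lipase activator (-1.15, adjusted p = 0.0155). Pdgfra and Pdgfrb are also carried by fibroblasts and pericytes. The share of 7 in 59 stands beside 8.28% over all genes. Of the 61 tested at day 19, and of the 61 tested after fibroblast injection against Col5a1CKO, 0 passed with edgeR. Against WT, injected wounds were higher in Cebpd (3.12, adjusted p = 0.0115), Zfp423 (2.68, adjusted p = 0.0408) and Dgat1 (2.20, adjusted p = 0.00365), 3 of 61 beside 3.77% over all genes. From day 14 to day 19 in WT, 4 of 61 were lower, namely the epidermal fatty acid carrier Fabp5 (-3.04, adjusted p = 0.0132), Cd24a (-3.38, adjusted p = 0.00412), Abhd5 (-1.76, adjusted p = 0.00371) and Me1, which makes NADPH for lipid synthesis (-1.33, adjusted p = 0.019). Over all genes 4.25% were lower, so 4 of 61 is near the background. In Col5a1CKO, 1 of 61 was lower at day 19, Plin2 (-1.98, adjusted p = 0.0367), beside 3.85% lower over all genes. This is no more than the share over all genes.

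The cilengitide table held most of the calls. Between the vehicle groups, 13 of 60 list genes tested were higher and 18 lower in Col5a1CKO, where 17.5% of all genes tested were higher and 13.4% lower; the higher count is thus near the share over all genes, and the same shares stand behind each list. In the lipid droplet and lipolysis list of 12, 2 were higher and 7 lower of 10 tested, with a median log2 fold change of -1.46. G0s2, a lipase inhibitor, was higher (7.36, adjusted p = 0.00481), as was Plin2 (3.08, adjusted p = 0.003), and Adrb3 (-5.24, adjusted p = 0.00645), Cidea (-4.57, adjusted p = 0.00511) and the monoglyceride lipase Mgll (-3.32, adjusted p = 0.00129) were lower. In the lipogenesis list of 16, 1 was higher and 6 lower of 14 tested, with a median of -1.10. Elovl6 (-4.23, adjusted p = 0.000531), Scd1, a desaturase (-4.08, adjusted p = 0.000575), and Acacb (-2.73, adjusted p = 0.00215) were lower and Dgat1 higher (3.30, adjusted p = 0.0147). Cidea, Scd1 and Elovl3 (-7.46, adjusted p = 0.00168) are also known from sebaceous glands. Of the sebocyte markers, 4 of 5 tested were lower in Col5a1CKO with vehicle (median log2 fold change -5.59). In the uptake list of 9, Cd36, a fatty acid transporter (3.03, adjusted p = 0.000906), and Gpihbp1, the endothelial anchor of Lpl (1.49, adjusted p = 0.0374), were higher, and Acsl1 lower (-2.46, adjusted p = 0.00180).

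Of the adipogenic factors, Cebpa was lower (-2.83, adjusted p = 0.000906) and Cebpb (2.07, adjusted p = 0.0363), Cebpd (2.05, adjusted p = 0.00104) and Ebf1 (1.54, adjusted p = 0.0119) were higher in Col5a1CKO with vehicle. Of the 11 adipokines and receptors, 5 of 10 tested were higher and none lower, Retn among them, with Angptl4, an inhibitor of Lpl (2.86, adjusted p = 0.000694), Rarres2 (2.69, adjusted p = 0.00372) and Rbp4 (2.21, adjusted p = 0.0258). Of the progenitor list of 8, Pdgfra was higher (2.99, adjusted p = 0.0178) and Dpp4 lower (-1.74, adjusted p = 0.00701). Of the brown and beige list of 6, Elovl3 and Ppargc1a (-1.46, adjusted p = 0.0241) were lower. With cilengitide against vehicle in Col5a1CKO, 12 of 60 were higher and 5 lower, beside 6.48% higher and 6.59% lower over all genes, so the lower count is near the background. Elovl3 (6.74, adjusted p = 0.0074), Cidea (4.46, adjusted p = 0.0149), Adrb3 (4.35, adjusted p = 0.0252), Elovl6 (3.85, adjusted p = 0.00577), Scd1 (3.71, adjusted p = 0.00613), Mgll (3.0, adjusted p = 0.00727), Acacb (2.53, adjusted p = 0.0234), Cebpa (1.96, adjusted p = 0.00687) and Acsl1 (1.70, adjusted p = 0.0127) were among the higher. Cd36 (-2.02, adjusted p = 0.00545), Plin2 (-1.94, adjusted p = 0.0314), Cebpd (-1.40, adjusted p = 0.00608), Angptl4 (-1.28, adjusted p = 0.0111) and Rarres2 (-1.2, adjusted p = 0.0115) were the lower. Against WT vehicle wounds, 6 of 61 were higher and 3 lower with cilengitide, beside 5.15% and 3.43% over all genes. G0s2 (3.77, adjusted p = 0.0378), Angptl4 (1.61, adjusted p = 0.015), Rarres2 (1.52, adjusted p = 0.0471), Plin2 (1.18, adjusted p = 0.0193), Ebf1 (1.13, adjusted p = 0.048) and Cd36 (1.04, adjusted p = 0.0373) were the higher, and Ppargc1a (-1.34, adjusted p = 0.0499), Klf15 (-1.13, adjusted p = 0.0353) and Dgat2 (-1.13, adjusted p = 0.0193) the lower. Of the 5 adipocyte markers only 2, 2 and 3 had enough reads to be tested in these 3 comparisons, and 1 was called, Retn between the vehicle groups. Keratinocyte and sebocyte markers moved in the same wounds, as given above, and their part in these lists was not tested.

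The members were also compared wound by wound. Over the 23 wounds of the first table, Spearman's correlation with Adipoq was 0.79 for Cfd, 0.78 for Plin1, 0.77 for Pck1, 0.74 for Cidec, 0.71 for Retn and 0.62 for Lep, but 0.53 for Lpl, 0.35 for Pparg and 0.24 for Fabp4. The points share library sets and genotypes, so the values are descriptions. Summed skeletal muscle markers followed Adipoq with 0.59 and keratinocyte markers with -0.58, but with 0.056 and -0.17 in the cilengitide table. Over the 12 wounds of the cilengitide table the correlation with Adipoq was 0.84 for both Lep and Cfd, 0.60 for Pck1, 0.57 for Cidec, 0.53 for Plin1 and 0.50 for Retn, but 0.21 for Lpl, 0.09 for Pparg and -0.50 for Fabp4. Lpl there followed the fibroblast markers with 0.89 and Retn the macrophage markers with 0.76. In the first table these were 0.43 and 0.31, and Retn followed the skeletal muscle markers with 0.65. In both tables Fabp4, Lpl and Pparg thus had the lowest coefficients with Adipoq of the 9 other members.

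Among the 14354 genes that averaged 1 CPM or more in the first table, the 10 non-members most like Adipoq by Spearman's correlation over 23 wounds were Mup10 (0.91), Gprc5c (0.83), Amy1 (0.82), Enpep (0.81), Cisd3 (0.77), Car3 (0.76), Cyp2e1 (0.76), Tcea3 (0.75), Rab12 (0.75) and Sil1 (0.74). Among 13887 such genes in the 12 wounds of the cilengitide table they were Tmem42 (0.83), Klrd1 (0.82), 2210015D19Rik (0.81), Rpp30 (0.80), Snapc5 (0.79), Stra13 (0.76), Mosc2 (0.76), Gm14325 (0.75), Slc7a4 (0.75) and Arl13b (0.73). No gene was on both lists.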

How the data were processed

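Total RNA of wound punches was made into stranded TruSeq libraries and sequenced as single reads. Per the study's methods, the authors aligned reads to NCBI37/mm9 with Hisat2 (version not given in the sources used here) and counted them over RefSeq exons in SeqMonk; the deposited values are raw counts per gene. The 2 tables hold 35 wounds, and 0 other columns of per-sample values were left unused. Groups came from the sample titles.

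One row per symbol was kept, that with the largest total. Genes were filtered with filterByExpr (minimum count 10), scaled by TMM and tested between 2 groups with edgeR 4.0.16 (quasi-likelihood, robust) in R 4.3.3, with Benjamini-Hochberg adjustment over all genes tested. A gene was called at an adjusted p under 0.05 and at least 2-fold. The interaction was tested in the same way. DESeq2 1.42.0, other scaling and filters, all groups in 1 fit, library set, sex, replicate letter and left-out wounds were alternatives. The edgeR test between 2 groups was checked on simulated counts for Col5a1CKO against WT at day 14, at day 19 and with vehicle. The other steps were not checked in this way. RPKM were computed from the counts only to compare genes. All 10 members were named, with up to 3 called genes per direction and list. The members and lists were chosen with earlier results of these data known. Counting RefSeq exons may share reads between paralogs such as Retn and Retnlg.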

Additional observations from a re-analysis of the deposited data

Results flagged for a closer look

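In each group of 4 to 7 wounds, a wound was marked when its gap to the nearest other wound, divided by the range of the group on the log2(CPM + 1) scale, passed Dixon's limit for that group size. This marked 14 of the 50 combinations of gene and group. The limit is set to mark about 1 in 20 for normally distributed values. Some groups here had several wounds at 0 reads, and where all wounds but 1 are at 0 the ratio is 1.0 at any count. The genes also share wounds, so the marks are not independent. The count of marks thus cannot be read against 1 in 20.

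One wound with cilengitide, replicate 3, was marked for 5 genes: Adipoq (ratio 0.966, 3.58 CPM against 0.0822 in the next wound), Plin1 (0.863), Lep (0.948), Cfd (0.868, 8.27 against 0.411 CPM) and Pck1 (1.0, the only wound of the 4 with reads). WT wound a of day 14 was marked for Plin1 (0.609), Cidec (0.584) and Pck1 (0.868, 5.79 against 0.288 CPM). Col5a1CKO vehicle wound 2 was marked for Plin1 (0.875) and Pparg (0.896, 6.70 against 1.60 CPM). WT vehicle wound 2 was the lowest for Adipoq (0.844) and Cfd (0.876), and WT vehicle wound 4 was marked for Pck1 (1.0), on 2 reads, below the limit of detection. Col5a1CKO wound b of day 14 was marked for Lep (0.711, 7.98 against 1.21 CPM).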

How the results depend on the processing

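Of the counts of called genes under the alternatives, 154 stayed within 1.5 times the main count and 15 moved; of the single-gene values, 497 kept direction and call, 14 gained a call, 1 lost it and 19 changed sign. The cause was not tested unless named. Members called at day 14 numbered 0, and 1 with all groups in 1 fit (Lep) and in the lower library set alone (Fabp4). Over all genes, 2425 of 16054 and 955 of 14473 were called in these fits. Injected wounds against WT gave 0, and 1 with all groups in 1 fit, 1 with DESeq2 and 2 in the upper set alone. There 1991 of 16054, 2042 of 15318 and 4690 of 15133 genes were called. Day 19 against day 14 in WT gave 0, and 2 with all groups in 1 fit, 7 in the upper set alone and 0 to 2 with single wounds left out. With all groups in 1 fit 2265 of 16054 genes were called, and in the upper set 3655 of 15060. The vehicle groups gave 1, and 2 with all genes of at least 1 count, 2 with all groups in 1 fit, 2 with DESeq2 and 0 to 2 with single wounds left out. In the first 3 of these settings 4950 of 19418, 5521 of 15916 and 5269 of 15435 genes were called. Cilengitide against vehicle gave 0 to 1 with single wounds left out. The shares over all genes with single wounds left out are not given here.

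At day 14, Fabp4 changed sign in the upper set (0.21), Pparg too (0.72), and Lpl with library size only (0.051), the replicate block (0.42), library set as a covariate (0.15), both wounds left out (0.15), the upper set (1.36) and single wounds left out (-0.36 to 0.56). Fabp4 from day 14 to day 19 in WT was 0.078 in the upper set. With single wounds left out, the log2 fold changes from day 14 to day 19 in Col5a1CKO ran from -0.78 to 2.16 for Plin1 and from -1.74 to 2.50 for Pck1, and those between the vehicle groups from -0.35 to 0.084 for Fabp4 and from -1.07 to 0.16 for Pparg.

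The labels do not say whether replicate letters pair the wounds. Deviations of same-lettered wounds correlated from -0.46 to 0.57 over 7 pairs at day 14 and from -0.43 to -0.32 over 3 pairs at day 19. For injected wounds they correlated from -0.19 to 0.41 over 3 pairs. Wounds of different letters were not correlated as a reference, so a pairing was neither shown nor excluded. With the letter as a block 0 members were called in each. The calls over all genes went from 1189 to 1324 at day 14 and from 3, all higher, to 7, all lower, at day 19. For fibroblast-injected against control Col5a1CKO wounds they went from 0 to 2540. That last fit kept only wounds a to c of both groups. These controls were all in the lower library set and the injected wounds all in the upper. Injection and library set cannot be told apart in that fit. Over all genes, DESeq2 called more than edgeR: 2095 against 1189 between genotypes at day 14, 1397 against 3 at day 19, 19 against 0 for injected against control Col5a1CKO wounds, 2042 against 893 for injected wounds against WT, 1969 against 872 from day 14 to day 19 in WT, 1653 against 877 in Col5a1CKO, 40 against 0 for the interaction and 2166 against 1331 for cilengitide against WT. Between the vehicle groups it called 5269 against 4773, and for cilengitide against vehicle 2664 against 2033. The sex covariate and the fit without both wounds in which Adipoq stood apart were chosen after seeing the data. Groups of 3 and genes with few reads limit what could be detected.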
